A study of Mus musculus with 9 samples.

Results

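Genes used as markers of plasmacytoid dendritic cells (pDC) or of a lymphoid origin were followed through RNA sequencing of splenic type 2 dendritic cells (DC2). They were taken by symbol, as *Siglech*, *Pacsin1*, *Runx2*, *Ly6d*, *Atp1b1*, *Rag1*, *Dntt* and *Cd7*, and make up 8 of the 24054 genes counted. All mice were C57BL/6 and carried Clec9a-Cre/Cre Rosa-tdTomato/tdTomato, so that a cell which had expressed the Cre recombinase from the *Clec9a* locus, or whose precursor had, was labeled with TOMATO. The 9 libraries came from live, single, autofluorescence-negative MHCII+CD11c+CD11b+ spleen cells divided by TOMATO. Young TOM+ cDC2 (n = 3) and young TOM- DC2 (n = 3) were sorted at postnatal day 8, and adult TOM+ cDC2 (n = 3) at 9 weeks in 1 library and at 8 weeks in the other two. No adult TOM- cells were analysed here, so a group of TOM- DC2 has no adult counterpart. Spleens of young mice were pooled, and TOMATO records the history of Cre activity and not the present level of *Clec9a*, whose level was at most 0.34 TPM in any library (TPM is a share of transcripts corrected for gene length). The paper states that mice with Cre at both copies have no functional DNGR-1, the product of *Clec9a*. The level of *Clec9a* here is thus not that of an intact gene. The labels do not say which libraries came from separate mice, so the p-values below measure the spread between these samples.

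pDC are dendritic cells specialized in making type I interferon after sensing nucleic acids. They depend on the E protein TCF4, also known as E2-2, and can arise from both myeloid and lymphoid progenitors. Lymphoid progenitors open the Rag locus and express terminal transferase before B and T cell receptor genes are rearranged, and *Ly6d* is the surface marker that divides common lymphoid progenitors into those biased towards B cells and those that are not. *Siglech*, *Pacsin1*, *Runx2*, *Ly6d* and *Atp1b1* are therefore used to recognize pDC or their progenitors, and *Rag1* and *Dntt* to recognize lymphoid descent.

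Depth was 12783252 to 22809401 reads on genes per library, and no library of a group was a copy of another. The dendritic cell identity of the sort was visible in every library: all 12 genes of a cDC2 list were detected, with *Sirpa* at 463 to 862 TPM. Genes listed for other cell types were not absent and differed in level within each list. Among B cell genes, *Cd79a* was at most 1.59 TPM, but *Cd79b* was at 25.3 to 68.2 TPM and *Ms4a1* at up to 22.1 TPM. Among T cell genes, *Cd3e* was at most 1.74 TPM and *Cd3g* at most 2.77 TPM, but *Cd5* was at 20.5 to 37 TPM. Among natural killer (NK) cell genes, *Ncr1* was at most 0.25 TPM, but *Klrk1* was at 33.4 to 64.9 TPM.

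The 8 genes differed widely in level. *Cd7* was abundant, at 201 to 889 TPM. *Runx2* was expressed at a modest level, between 5.63 and 12.2 TPM. *Atp1b1* was low, at 0.94 to 3.4 TPM, but had 22 to 89 counts in every library. *Ly6d*, *Siglech* and *Pacsin1* were lower in counts, and *Rag1* and *Dntt* had no read in any library. Since TPM corrects for gene length, these levels can be set beside each other within a library.

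**Figure D1:**
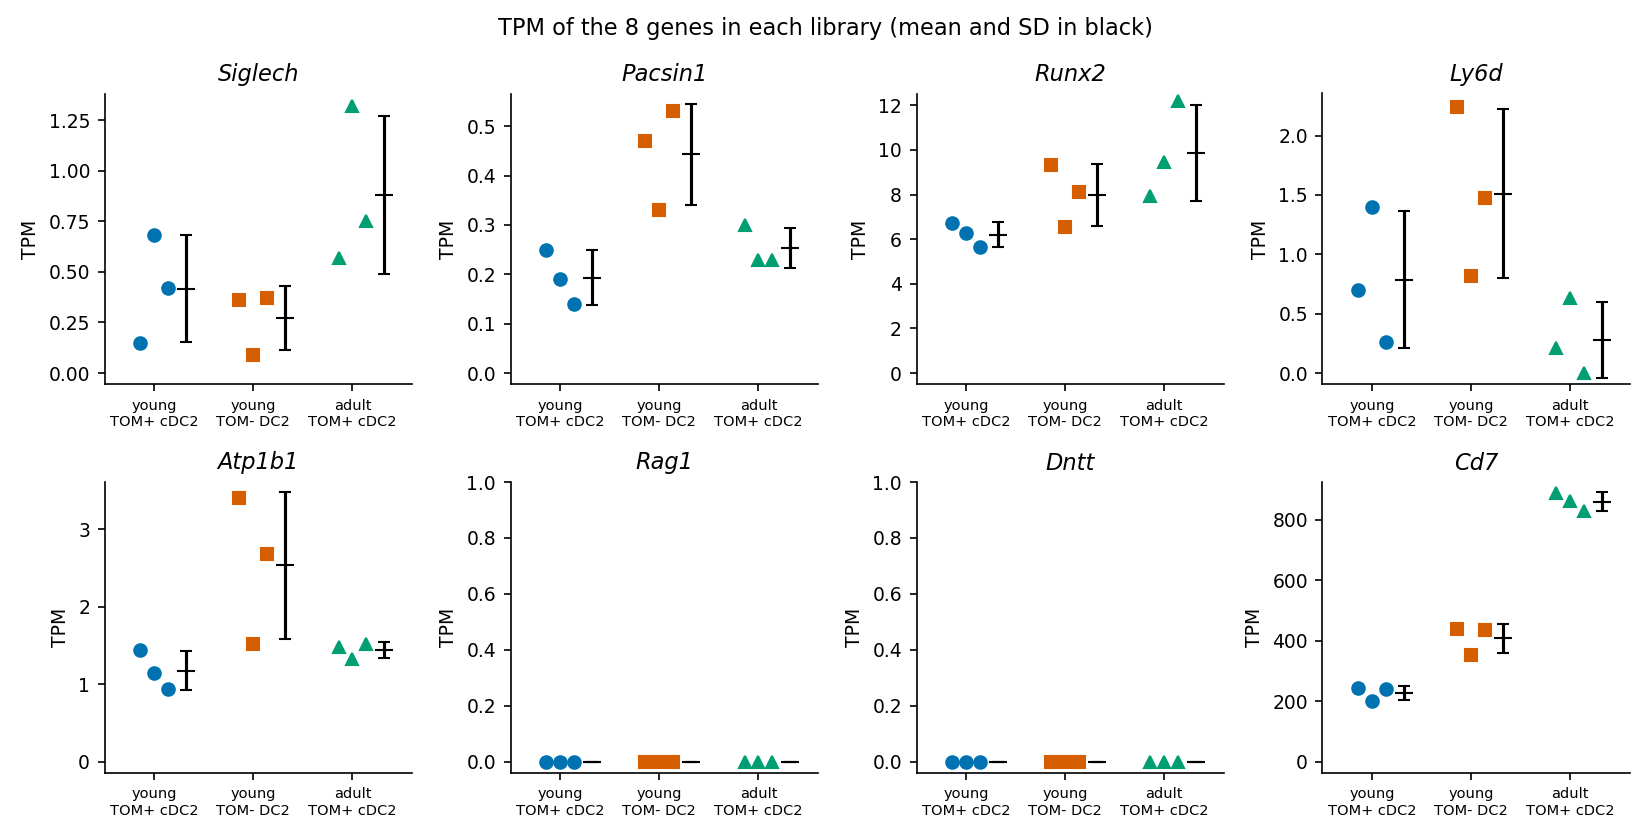
TPM of each gene (y axis, from 0, with its own scale in each panel) in the 3 libraries of each group (x axis), with circles for young TOM+ cDC2, squares for young TOM- DC2 and triangles for adult TOM+ cDC2, and the mean with its SD in black. *Cd7* separates all 3 groups, from a highest value of 243 TPM in young TOM+ cDC2 to a lowest of 827 TPM in adults. *Rag1* and *Dntt* lie at 0. Among the low genes, the TPM of young TOM+ cDC2 and TOM- DC2 overlap for *Siglech* and *Ly6d* but not for *Pacsin1* and *Atp1b1*. In normalized counts the young groups overlap for *Atp1b1* as well. Neither *Pacsin1* (edgeR adjusted p = 0.31) nor *Atp1b1* (edgeR adjusted p = 0.21) passed between the young groups. The share of all genes that separate them in this way is not given.

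The sequences upstream of *Rag1*, *Dntt* and *Siglech* are shown because they set genes without a read (*Rag1*, *Dntt*) beside one with few reads (*Siglech*, 1 to 24 counts). RUNX factors and E proteins, which bind motifs of the kinds searched here, were expressed in these cells, as described below. Whether they act on these genes was not tested. RefSeq windows of the 250 bases before the start site (GRCm38.p6) were given for 6 of the 8 genes, the other two being *Ly6d* and *Cd7*. Each window uses 1 start site per gene. For *Siglech*, *Runx2* and *Pacsin1* this site lies inside the gene bounds given below, which span all transcripts, so part or all of those windows is within the gene. Each window was searched on both strands for the E box CAGCTG, which reads alike on both strands, for a second E box with the letters CAGGTG, and for the RUNX motif TGTGGT. On the opposite strand the second E box appears as CACCTG and the RUNX motif as ACCACA. No match overlapped another. Capitals mark the matches. The *Rag1* window lies on the minus strand at chr2:101649533-101649782, that of *Dntt* on the plus strand at chr19:41029025-41029274 and that of *Siglech* on the plus strand at chr7:55767934-55768183.
Rag1: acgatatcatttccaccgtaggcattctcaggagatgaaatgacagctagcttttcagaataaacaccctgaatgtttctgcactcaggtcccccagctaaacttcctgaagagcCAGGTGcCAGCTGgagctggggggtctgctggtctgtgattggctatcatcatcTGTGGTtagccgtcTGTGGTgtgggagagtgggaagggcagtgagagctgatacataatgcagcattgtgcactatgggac
Dntt: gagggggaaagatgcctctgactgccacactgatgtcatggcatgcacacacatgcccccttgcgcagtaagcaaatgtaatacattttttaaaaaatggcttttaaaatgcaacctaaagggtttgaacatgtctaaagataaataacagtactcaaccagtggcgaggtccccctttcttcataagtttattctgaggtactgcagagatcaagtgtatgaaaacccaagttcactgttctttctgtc
Siglech: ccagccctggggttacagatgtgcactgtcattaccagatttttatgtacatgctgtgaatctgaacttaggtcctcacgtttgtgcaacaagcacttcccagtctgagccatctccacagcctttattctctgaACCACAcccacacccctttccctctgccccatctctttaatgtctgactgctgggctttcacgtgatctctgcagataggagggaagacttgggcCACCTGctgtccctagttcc

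The *Rag1* window held 1 match to the first E box, 1 to the second and 2 RUNX motifs, and the *Dntt* window held none of the 3 motifs. The *Siglech* window held 1 match to the second E box and 1 RUNX motif, and the *Runx2* window 1 RUNX motif. Of the remaining genes, *Pacsin1* had 1 RUNX motif and *Atp1b1* had no match. Over all 27025 windows of the same length, the first E box occurred in 12.8%, the second in 17.1% and the RUNX motif in 14.2%, and among the 6 windows in 1, 2 and 4. A match describes these letters and was not tested as a binding site.

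*Rag1* (chromosome 2 of GRCm38, 101638252 to 101649532) encodes a subunit of the recombinase that cuts antigen receptor genes. *Dntt* (chromosome 19, 41029275 to 41059525) encodes terminal deoxynucleotidyl transferase, which adds bases at the joints. Each had 0 counts in all 9 libraries. A count of 0 allows up to 3 counts per library, which corresponds to 0.0329 to 0.0611 TPM for *Rag1* and 0.106 to 0.197 TPM for *Dntt*, and covers counting error only. *Rag2*, the second subunit of the recombinase, also had 0 counts in all 9 libraries. Transcription of these genes was thus not detectable at this depth in either young group or in adults, and no fold change could be given. Reads at the time of the sort do not report on expression in a progenitor.

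The end joining machinery that completes V(D)J recombination, and repairs other breaks in all cells, was largely expressed. Of the 14 genes listed, 13 were tested and 1 had no read in any library. No gene passed an adjusted p-value (padj) of 0.05 between the young groups with edgeR, although 2 had an unadjusted p under 0.05, and neither DESeq2 nor limma passed any. Against adults, 7 passed for young TOM+ cDC2, of which 3 were higher in the young, and 3 passed for young TOM- DC2, of which 2 were higher in the young, beside 40.6% and 36.3% of all tested genes. The chromatin proteins *Hmgb2* and *Hmgb1*, cofactors of the recombinase with many other uses, were the most abundant genes of the list. *Hmgb2* measured 752 ± 15.4 TPM (SD, n = 3) in young TOM+ cDC2, 689 ± 85.5 TPM in young TOM- DC2 and 374 ± 63.5 TPM in adults, and *Hmgb1* 159 ± 10.9, 155 ± 8.25 and 84.1 ± 6.6 TPM. Both were higher in either young group than in adults (edgeR padj between 8.4e-05 and 0.007), and the groups of young mice did not pass. *Dclre1c*, the nuclease Artemis, was higher in adults, with 31.2 ± 6.51, 40.4 ± 6.38 and 51.1 ± 7.58 TPM in the same order. The polymerases most related to *Dntt* remained measurable: *Poll* had 9.45 ± 1.57, 9.42 ± 1.35 and 9.18 ± 2.06 TPM, and *Polm* 1.54 ± 0.189, 2.15 ± 0.537 and 2.53 ± 0.407 TPM.

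*Cd7* (chromosome 11, 121036747 to 121039478) encodes a surface protein of the immunoglobulin superfamily best known from T cells, NK cells and their progenitors. It was the one gene of the 8 that separated all groups. Young TOM+ cDC2 had 243, 201 and 240 TPM, young TOM- DC2 438, 353 and 434 TPM, and adult TOM+ cDC2 889, 860 and 827 TPM. The lowest TOM- library lay above the highest TOM+ library of the same age, and all adult libraries lay above both. Across ages the level of *Cd7* thus did not follow the absence of TOMATO, being highest in adult TOM+ cells. By mean TPM, *Cd7* ranked at place 721 among the 24054 genes in young TOM+ cDC2, at place 368 in young TOM- DC2 and at place 144 in adults. The gene overlaps *Gm11775*, which was not among the genes counted. Since the counting used no strand, reads of *Gm11775* cannot be told apart from those of *Cd7* where they overlap.

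Differences were tested with edgeR over all genes, and genes were called at a log2 fold change (log2FC) beyond 1 in either direction with padj under 0.05. Each log2FC is the first group relative to the second, so a negative value is higher in the second. Between young TOM+ cDC2 and young TOM- DC2, the log2FC of *Cd7* was −0.81, with a standard error of 0.10 and a 95% interval of −1.03 to −0.60 (edgeR padj = 0.00067), a fold of 1.75 in favor of TOM- DC2. Within each of the 3 same-numbered pairs, the ratio of TOM- to TOM+ TPM was 1.8, 1.75 and 1.81. *Cd7* was below the fold threshold here, so of the 6 genes of the group with enough counts to be tested 0 were called and 1 passed padj, against 1.18% called and 1.60% passed over all 14452 genes tested. Of the 6, 4 had an unadjusted p under 0.05, beside 9.38% of all tested genes, and DESeq2 and limma also called 0 and passed 1.

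Against adults, *Cd7* was lower in young TOM+ cDC2 (log2FC −2.04, standard error 0.10, edgeR padj = 8.2e-08) and in young TOM- DC2 (log2FC −1.23, standard error 0.10, edgeR padj = 3e-06). The corresponding folds were 4.12 and 2.35. It was the 1 gene of the 6 that was called in each of these comparisons, where 12.8% and 11.3% of all tested genes were called. Both comparisons use the same 3 adult libraries and are not independent. Without any single library the log2FC of *Cd7* stayed between −0.88 and −0.74 for the young groups, between −2.12 and −1.98 for young TOM+ cDC2 against adults and between −1.32 and −1.16 for young TOM- DC2 against adults, and padj stayed under 0.05 throughout.

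**Figure D2:**
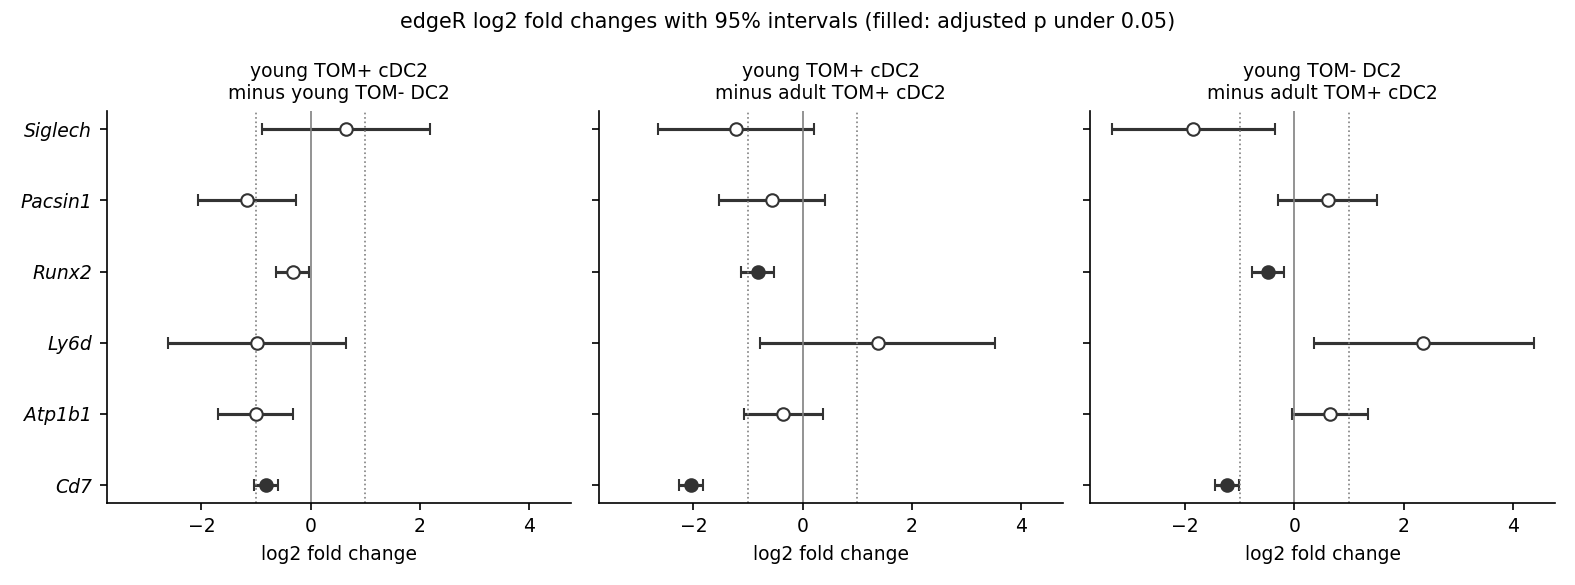
Log2FC from edgeR (x axis) with 95% intervals for the 6 tested genes (y axis) in the 3 comparisons, with dotted lines at 1 and −1 and filled circles for padj under 0.05. *Cd7* lies at −0.81, −2.04 and −1.23, and the intervals of *Siglech* and *Ly6d* are the widest of the 6 in every panel.

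Few abundant genes passed when the young groups were compared. Of 1731 tested genes with a mean of at least 100 TPM, 9 passed padj between young TOM+ cDC2 and TOM- DC2. This was 0.52%, beside 1.6% of all tested genes, and *Cd7* itself had a mean of 498 TPM over all libraries. These 9, identified after their values were seen, were *Cd7*, *Ccl5*, *Ltb*, *Cd82*, *Tbc1d4*, *Ifitm1*, *Ybx3*, *Spint2* and *Apol7c*, and among them *Apol7c* (log2FC −0.88) was the one further towards TOM- DC2 than *Cd7*. *Ccl5*, a chemokine, had a log2FC of −0.67 and *Ltb*, the lymphotoxin subunit, −0.52. Against adults changes were common at this abundance, where 57.9% of the same genes passed for young TOM+ cDC2, and *Cd7* was exceeded in that direction by 7 genes.

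The genes whose levels were most like *Cd7* over the 9 libraries, among 11289 with a mean of at least 1 TPM, were *Sort1* (Pearson r = 0.9909 of log2(TPM + 1)), *Pglyrp2* (r = 0.9907) and *Phc1* (r = 0.9869). These libraries share 3 groups, so each r describes mainly the order of the groups. *Sort1*, the sorting receptor sortilin, had means of 5.96, 9.71 and 21.3 TPM in young TOM+ cDC2, young TOM- DC2 and adults. *Pglyrp2*, a peptidoglycan-cleaving amidase, had 4.21, 9.1 and 26.8 TPM, and *Phc1*, a Polycomb protein, 14.4, 24.1 and 65 TPM. The known ligands of CD7 in the mouse were scarce in the same cells: *Sectm1a* was at most 0.34 TPM and *Sectm1b* at 0 TPM in every library.

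Genes of other cells that express *Cd7* did not share its abundance. Of 8 T cell genes present in the tables, 6 had a mean below 1 TPM, and the summed level of the list was 30.9 to 31.1 TPM in young TOM+ cDC2, 39.9 to 40.9 TPM in young TOM- DC2 and 22.9 to 32.5 TPM in adults, most of it from *Cd5* (20.5 to 37 TPM). *Cd3e* was at 0 TPM in 1 young TOM- library and 2 adult libraries. Of the 8 NK cell genes, 6 had a mean below 1 TPM, and the list summed to 61.8 to 69.2, 43.6 to 54.6 and 37.6 to 49.9 TPM in the same order of groups, mostly from *Klrk1*. *Eomes*, *Gzma* and *Prf1* were at most 0.38 TPM. *Il2rb*, a receptor subunit of this list, was higher in TOM- DC2 (2.58 ± 0.42 TPM) than in young TOM+ cDC2 (0.07 ± 0.0693 TPM, edgeR padj = 0.00017), while *Klrk1* was higher in young TOM+ cDC2 than in TOM- DC2 (log2FC 0.59, edgeR padj = 0.028), the direction opposite to *Cd7*.

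B cell and type 3 innate lymphoid cell (ILC3) genes moved with *Cd7* in part. Of 7 tested B cell genes, 3 were called between the young groups, all higher in TOM- DC2, a direction in which 1.16% of all tested genes were called: *Ms4a1*, *Fcer2a* and *Blk*. *Blk*, a kinase of the SRC family, had 0.603 ± 0.471 TPM in young TOM+ cDC2, 5.91 ± 1.52 TPM in young TOM- DC2 and 13.3 ± 3.64 TPM in adults, the order of groups seen for *Cd7*, and so did *Ms4a1*, encoding CD20, with 2.46 ± 0.376, 7.8 ± 2.29 and 16.9 ± 4.51 TPM. Against adults, *Cr2*, *Ms4a1*, *Fcer2a* and *Blk* were called lower in young TOM+ cDC2, and *Ms4a1*, *Cr2* and *Blk* lower in young TOM- DC2, while *Fcer2a* was higher there. *Cd79b*, the most abundant gene of the list by mean, had 62.1 ± 4.82, 64.7 ± 3.05 and 30.6 ± 5.15 TPM. Unlike *Cd7*, it passed padj as higher in either young group than in adults. The list summed to 61.8 to 72.4, 81.6 to 95.5 and 58.5 to 75.1 TPM, and *Pax5* was at most 0.12 TPM. Among ILC3 genes, *Il1r1* and *Il18r1*, receptor genes of the interleukin-1 family, were called higher in TOM- DC2 than in young TOM+ cDC2. *Il1r1* had 0.24 ± 0.0819 TPM in young TOM+ cDC2, 3.91 ± 0.304 TPM in young TOM- DC2 and 0.0867 ± 0.0252 TPM in adults, where *Cd7* was highest. The ILC3 list summed to 151 to 189, 219 to 287 and 285 to 340 TPM, mainly from *Kit*, and *Il22* was at 0 TPM in every library. The part of such cells in the *Cd7* difference was not tested. In sorted bulk samples, fewer cells of a type and less RNA per cell cannot be told apart.

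*Siglech* (chromosome 7, 55768154 to 55779448) encodes the sialic acid-binding lectin by which mouse pDC are commonly identified, and it was barely detected. Young TOM+ cDC2 had 0.15, 0.68 and 0.42 TPM, from 4, 16 and 12 counts. Young TOM- DC2 had 0.36, 0.09 and 0.37 TPM, from 7, 1 and 13 counts. Adult TOM+ cDC2 had 0.57, 1.32 and 0.75 TPM, from 10, 24 and 17 counts. The young groups overlapped, as did young TOM+ cDC2 and adults, while every TOM- library lay below every adult library. Between the young groups the log2FC was 0.64 (standard error 0.71, edgeR padj = 0.9) with a 95% interval of −0.90 to 2.18, and for young TOM+ cDC2 against adults −1.21 (standard error 0.65, edgeR padj = 0.16). For young TOM- DC2 against adults it was −1.85 (standard error 0.69, edgeR padj = 0.052), which did not pass. With the number shared by young libraries as a replicate block the padj was 0.039, and it ranged from 0.029 to 0.069 under the alternative fits and from 0.03 to 0.19 without single libraries, so the call depended on the fit. In the summed counts, 51 of 42387414 reads in adults against 21 of 52346950 in young TOM- DC2 gave a ratio of 3 (95% interval 1.77 to 5.25, exact, counting error only). *Tyrobp*, the adaptor DAP12 through which Siglec-H signals, was by contrast among the most abundant transcripts, with 2041 ± 131, 2133 ± 200 and 2258 ± 98.6 TPM in young TOM+ cDC2, young TOM- DC2 and adults, and *Hcst*, the related adaptor DAP10, had 40.2 ± 3.5, 39.8 ± 3.23 and 43.2 ± 4.45 TPM. Neither adaptor passed in any comparison. *Siglech* overlaps *Gm39015*, which was not counted either, with the limit given for *Cd7*.

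*Pacsin1* (chromosome 17, 27655591 to 27711118) encodes a membrane-bending adaptor that in blood cells is largely restricted to pDC. It was at 0.25, 0.19 and 0.14 TPM in young TOM+ cDC2, 0.47, 0.33 and 0.53 TPM in young TOM- DC2 and 0.3, 0.23 and 0.23 TPM in adults. In TPM, every TOM- library lay above every other library, from 61 counts in all against 27 in each of the other groups. Relative to reads on genes, the ratio of these sums was 2.35 to young TOM+ cDC2 (95% interval 1.47 to 3.85). To adults it was 1.83 (1.15 to 2.99), both intervals being exact and covering counting error only. Between the young groups the log2FC was −1.16 (standard error 0.42), which did not pass (edgeR padj = 0.31), and against adults it was −0.56 for young TOM+ cDC2 (edgeR padj = 0.34) and 0.61 for young TOM- DC2 (edgeR padj = 0.28). Its ubiquitous paralog *Pacsin2* was expressed at 131 ± 9.14, 119 ± 9.11 and 111 ± 8.01 TPM, and the muscle paralog *Pacsin3* at 0.2 ± 0.0436, 0.163 ± 0.131 and 0.2 ± 0.187 TPM. Neither paralog passed in any comparison.

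*Runx2* (chromosome 17, 44495987 to 44814797), a transcription factor required for bone formation and for the release of mature pDC from the bone marrow, was measured in all libraries. Young TOM+ cDC2 had 6.71, 6.28 and 5.63 TPM, young TOM- DC2 9.32, 6.53 and 8.12 TPM, and adults 7.94, 9.47 and 12.2 TPM. In TPM, all adult libraries lay above all young TOM+ libraries, and TOM- DC2 overlapped both. In normalized counts the young groups did not overlap, although their difference did not pass, as given below. *Runx2* was lower in young TOM+ cDC2 than in adults (log2FC −0.82, standard error 0.14, edgeR padj = 0.00046), which held in all alternative fits and without any single library. It was also lower in young TOM- DC2 than in adults (log2FC −0.49, standard error 0.14, edgeR padj = 0.014), a difference that did not pass without TOM- replicate 2 (padj = 0.061), without adult replicate 3 (padj = 0.063), under limma (padj = 0.23 to 0.24) or without TMM scaling (padj = 0.15). With it, 2 of the 6 genes passed padj in each comparison with adults, where 40.6% and 36.3% of all tested genes passed, so that the share among the 6 was no higher than among all genes. Between the young groups the log2FC was −0.33 (standard error 0.14, edgeR padj = 0.43). The gene overlaps *Supt3*, which was counted, and *Runx2os3*, which was not. Because the counting used no strand, reads that fit both *Runx2* and *Supt3* may be left out as ambiguous. Reads of *Runx2os3* cannot be told apart from those of *Runx2* where they overlap.

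The other members of the RUNX family were more abundant than *Runx2* in the same cells and did not all move alike. *Runx3*, a regulator of T cell and dendritic cell differentiation, was at 99.9 ± 0.854, 107 ± 10.3 and 172 ± 3.76 TPM in young TOM+ cDC2, young TOM- DC2 and adults, and was higher in adults than in either young group (log2FC −0.91 and −0.84, edgeR padj = 1.2e-05 and 2.7e-05). *Runx1*, the factor of blood stem cell formation, was at 31.5 ± 1.71, 22.3 ± 0.82 and 20.2 ± 4.08 TPM and was higher in young TOM+ cDC2 than in adults (log2FC 0.63, edgeR padj = 0.0018). *Cbfb*, the partner that all 3 RUNX proteins bind, was at 156 ± 6.96, 152 ± 13.6 and 114 ± 7.88 TPM and was higher in both young groups (log2FC 0.33 and 0.25, edgeR padj = 0.0086 and 0.037). The RUNX motif marked in the sequences above is read by all of them, so it does not tell them apart.

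*Ly6d* (chromosome 15, 74762056 to 74763567) encodes the small surface protein of lymphoid progenitors introduced above. It gave 0.7, 1.4 and 0.26 TPM in young TOM+ cDC2 (5, 9 and 2 counts), 2.24, 0.82 and 1.47 TPM in young TOM- DC2 (13, 5 and 14 counts), and 0.21, 0.63 and 0 TPM in adults (1, 3 and 0 counts). The adult libraries were thus at or below the floor of 3 counts, and the young groups overlapped. For young TOM- DC2 against adults the log2FC was 2.36 (standard error 0.93, edgeR padj = 0.065), and the ratio of the summed counts, 32 of 52346950 reads against 4 of 42387414, was 6.48 (95% interval 2.3 to 25.2, exact, counting error only). Its padj ranged from 0.022 to 0.083 under the alternative fits that tested it. Over the 9 fits without a single library it ranged from 0.038 to 0.18, and only 1, without adult replicate 2, was under 0.05. For young TOM+ cDC2 against adults the log2FC was 1.38 (standard error 0.99, edgeR padj = 0.29) and between the young groups −0.99 (standard error 0.75, edgeR padj = 0.81). Among its relatives, *Ly6e* was abundant, with 770 ± 42.5, 793 ± 32.3 and 990 ± 283 TPM, and passed as higher in adults than in either young group (edgeR padj = 0.035 and 0.042), although adult replicate 3 (704 TPM) lay below the young libraries. *Ly6a*, encoding SCA-1, had 12.8 ± 3.01, 9.79 ± 1.51 and 17.4 ± 9.44 TPM and did not pass. The monocyte and pDC marker *Ly6c2* was at 1.15 ± 0.562, 0.407 ± 0.291 and 1.22 ± 0.656 TPM, and *Ly6k* at no more than 0.29 TPM. *Ly6c1* was called between young TOM+ cDC2 and adults (edgeR padj = 0.045). It rested on 14, 4 and 1 counts against none in adults, at least 4.92-fold against a floor of 3 counts over the group, and most of these counts lay in young TOM+ replicate 1. Reads that fit more than 1 of the near-identical Ly6 genes may be left out of the counts but divided among the genes in TPM. In adult replicate 2, *Ly6c1* had 0 counts but 0.4 TPM.

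*Atp1b1* (chromosome 1, 164437099 to 164458355), a regulatory subunit of the sodium pump and listed among the genes enriched in pDC, had 1.44, 1.14 and 0.94 TPM in young TOM+ cDC2, 3.4, 1.52 and 2.68 TPM in young TOM- DC2 and 1.48, 1.32 and 1.52 TPM in adults. In TPM, the TOM- libraries were at or above all others, with replicate 2 at the level of the adults. In normalized counts the young groups overlapped. Between the young groups the log2FC was −1.01 (standard error 0.32, unadjusted p = 0.0075), which did not pass over all genes (edgeR padj = 0.21, and 0.061 to 0.54 over the fits without a single library). Against adults, the log2FC of young TOM- DC2 was 0.66 with a standard error of 0.32 (edgeR padj = 0.13). Over the 9 fits without a single library this padj ranged from 0.033 to 0.38, and only 1, without TOM- replicate 2, was under 0.05. The log2FC of young TOM+ cDC2 against adults was −0.36 with a standard error of 0.33 (edgeR padj = 0.43). *Atp1b1* overlaps *Nme7*, which was counted, with the limit of unstranded counting given for *Runx2* and *Supt3*.

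Other beta subunits of the pump were measured beside it. *Atp1b3*, more abundant than *Atp1b1* in these cells, had 229 ± 26.6, 230 ± 14.6 and 160 ± 12.7 TPM and was higher in both young groups than in adults (log2FC 0.41 and 0.38, edgeR padj = 0.017 and 0.027), and *Atp1b2* had at most 0.29 TPM.

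The order of the levels differed between the 8 genes. Group means increased from young TOM+ cDC2 through TOM- DC2 to adults for *Cd7* and *Runx2*, TOM- DC2 had the highest mean for *Ly6d*, *Atp1b1* and *Pacsin1*, and adults for *Siglech*. These orders held for all 6 expressed genes whether TPM or normalized counts were used, but neighbors in an order passed padj only for *Cd7*, at both steps, and for *Runx2* between young TOM- DC2 and adults. The median log2FC of the 6 was −0.90 between the young groups, −0.69 for young TOM+ cDC2 against adults and 0.06 for young TOM- DC2 against adults, beside 0.00, 0.05 and 0.07 over all tested genes.

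A list of 21 further genes of pDC identity placed *Siglech* and *Pacsin1* in context. Of these, 19 were tested. The transcription factors that pDC share with other dendritic cells were all expressed: *Tcf4* at 21.9 ± 2.37, 18.5 ± 0.832 and 18.4 ± 0.901 TPM in young TOM+ cDC2, young TOM- DC2 and adults, *Bcl11a* at 60.6 ± 6.45, 57.3 ± 10.2 and 73.9 ± 7.21 TPM and *Spib* at 53.9 ± 7.49, 49.4 ± 10.8 and 41.2 ± 2.55 TPM. *Tcf4* and *Spib* did not pass in any comparison. Among the genes most particular to pDC, *Klk1* and *Klk1b27* were at 0 TPM in all 9 libraries and *Cox6a2* was at no more than 1.15 TPM. *Ccr9*, the homing receptor, was low but measured in every library, at 1.7 to 2.62 TPM from 73 to 128 counts. The level of the list summed to 316 to 360 TPM in young TOM+ cDC2, 319 to 395 TPM in young TOM- DC2 and 516 to 588 TPM in adults.

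**Figure D3:**
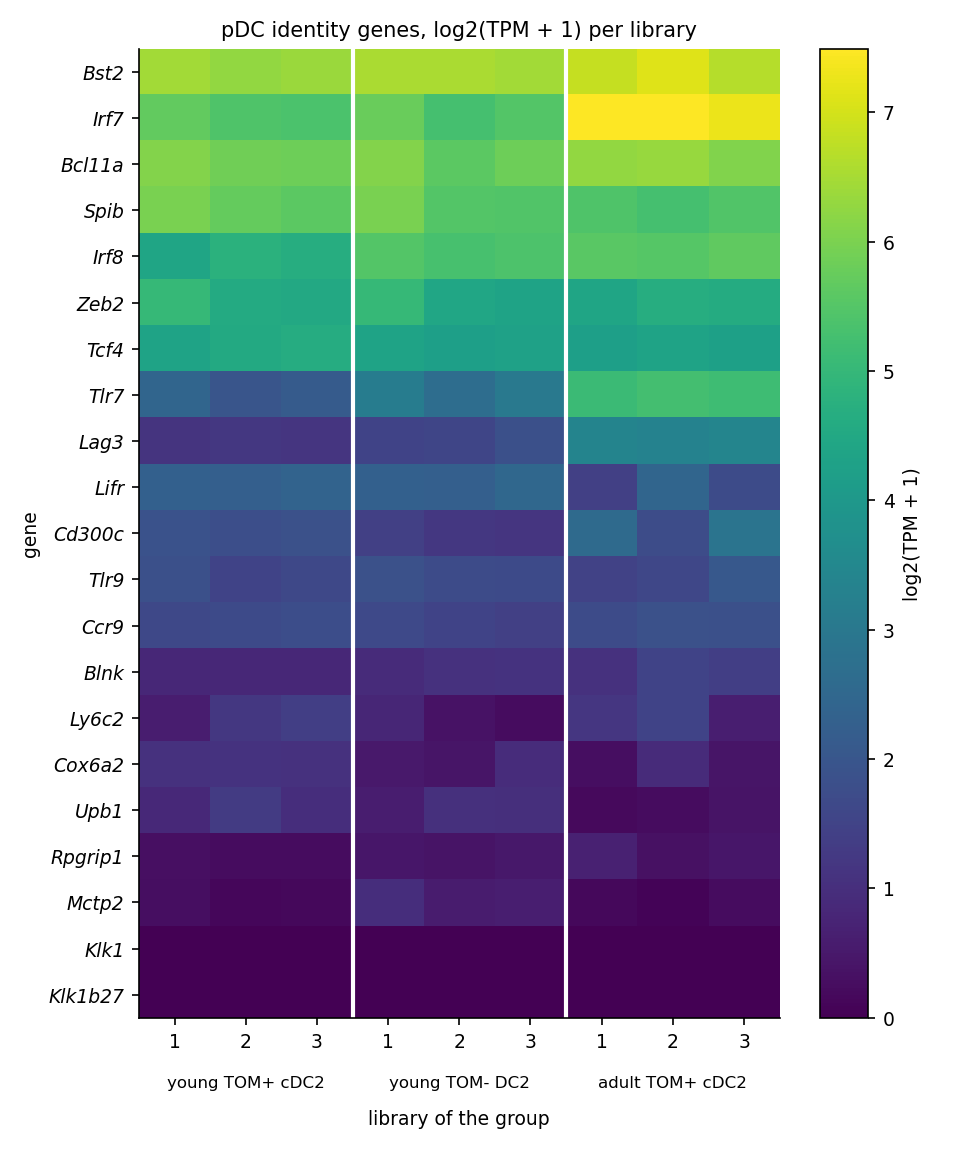
Log2(TPM + 1) of the 21 genes of the pDC identity list (rows, by mean level) in the 9 libraries (columns), from dark for 0 to bright. The adult libraries stand out for *Irf7* (means of 44.4, 45.3 and 170 TPM) and *Tlr7* (3.6, 6.83 and 35.4 TPM), and *Klk1* and *Klk1b27* are at 0 in every library.

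Between the young groups, 1 gene of the list was called higher in TOM- DC2, where 1.16% of all tested genes were called in that direction, and none higher in TOM+ cDC2, where 0.0208% were. The called gene was *Mctp2*, a membrane protein with C2 domains, at 0.147 ± 0.0643 against 0.663 ± 0.258 TPM (log2FC −2.18, edgeR padj = 0.026). *Irf8* and *Tlr7* passed padj in the same direction. *Irf8*, the factor that sets the balance of cDC1, pDC and cDC2, had 23.6 ± 3.13 TPM in young TOM+ cDC2, 41.5 ± 2.55 TPM in young TOM- DC2 and 47.2 ± 2.03 TPM in adults (log2FC −0.77, standard error 0.11, edgeR padj = 0.0027 between the young groups), the same order of groups as *Cd7*.

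In adults, 5 genes of the list were called higher than in young TOM+ cDC2 and 1 was called lower, beside 6.86% and 5.96% of all tested genes. The 5 were *Irf7*, *Tlr7*, *Lag3*, *Irf8* and *Blnk*. For *Irf7*, the master regulator of type I interferon, the log2FC was −2.08 with a standard error of 0.12 (edgeR padj = 1.9e-07), and for *Tlr7*, the receptor for single-stranded RNA, it was −3.43 with a standard error of 0.14 (edgeR padj = 3e-08). *Lag3*, an inhibitory receptor, was at 1.25 ± 0.0681, 2.11 ± 0.39 and 9.36 ± 0.337 TPM, and *Blnk*, an adaptor of B cell receptor signaling, at 0.78 ± 0.01, 1.03 ± 0.132 and 1.53 ± 0.376 TPM. The gene higher in the young was *Upb1*, an enzyme of pyrimidine breakdown, at 1.08 ± 0.344, 0.863 ± 0.298 and 0.207 ± 0.0929 TPM. Against young TOM- DC2, 4 genes were called higher in adults (*Irf7*, *Lag3*, *Tlr7* and the receptor gene *Cd300c*) and 2 lower (*Mctp2* and *Upb1*), beside 4.78% and 6.50% of all tested genes. *Tlr9*, the DNA sensor that pDC use together with TLR7, was at 2.19 ± 0.361, 2.37 ± 0.215 and 2.33 ± 0.777 TPM and did not pass in any comparison. *Bst2*, which encodes the pDC antigen PDCA-1 but is also induced by interferon in many cells, had 81.7 ± 5, 90.5 ± 2.99 and 118 ± 20.4 TPM and was higher in adults than in either young group (edgeR padj = 0.00087 and 0.0048).

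A small list for noncanonical CD8+ dendritic cells had no gene that passed between the young groups with edgeR, DESeq2 or limma, 2 having an unadjusted edgeR p under 0.05. *Cx3cr1* was at 19.7 ± 4.52, 16.7 ± 3.32 and 13.2 ± 2.47 TPM. *Cd8a* and *Cd8b1* were called higher in adults than in young TOM+ cDC2 but at low levels, *Cd8a* with 0.327 ± 0.247, 0.667 ± 0.282 and 1.76 ± 0.728 TPM and *Cd8b1* with 0.117 ± 0.111, 0.593 ± 0.289 and 0.78 ± 0.373 TPM.

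Of 22 genes of lymphoid progenitors, 18 were tested and 10 had a mean below 1 TPM. The early B lineage genes *Ebf1*, *Pax5*, *Vpreb1* and *Igll1* were at most 0.73 TPM, and the pre-T cell receptor gene *Ptcra* at most 0.33 TPM. The E proteins *Tcf3* and *Tcf12*, which drive *Rag1* and *Dntt* in lymphoid progenitors, were expressed where those targets were not detected. *Tcf3* had 59.6 ± 3.76 TPM in young TOM+ cDC2, 50.2 ± 5.47 TPM in young TOM- DC2 and 29.9 ± 2.12 TPM in adults, and *Tcf12* 13.5 ± 1.52, 14.2 ± 1.58 and 7.73 ± 0.889 TPM. Both were higher in either young group than in adults (*Tcf3* log2FC 0.86 and 0.59, *Tcf12* 0.68 and 0.70, edgeR padj between 2.9e-05 and 0.00055) and neither passed between the young groups. The most abundant genes of the list, *Il2rg*, the common cytokine receptor chain, and *Flt3*, the receptor of the main dendritic cell growth factor, were at 573 ± 29.7, 570 ± 37.2 and 842 ± 12.4 TPM and at 190 ± 18, 177 ± 20.1 and 256 ± 48.9 TPM, and both were higher in adults than in either young group (edgeR padj between 2.3e-05 and 0.004).

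Between the young groups 1 gene of this list was called, in a direction in which 1.16% of all tested genes were called: *Gata3*, a factor of T cells and innate lymphoid cells, at 0.177 ± 0.0764 TPM in TOM+ cDC2, 2.3 ± 0.202 TPM in TOM- DC2 and 0.38 ± 0.0693 TPM in adults (log2FC −3.67, standard error 0.31, edgeR padj = 6.1e-05 between the young groups). The TOM- libraries held 63, 64 and 116 counts of *Gata3* and the young TOM+ libraries 9, 5 and 5. *Il7r*, the receptor that defines common lymphoid progenitors, had 3.27 ± 0.37, 5.19 ± 0.41 and 3.91 ± 0.882 TPM, with every TOM- library above every young TOM+ library, and did not pass (log2FC −0.61, edgeR padj = 0.12). Against adults, young TOM+ cDC2 had 4 genes called lower (*Ikzf3*, *Sox4*, *Satb1* and *Gata3*) and 1 higher (*Notch1*), and young TOM- DC2 had 2 called lower (*Ikzf3* and *Sox4*) and 2 higher (*Gata3* and *Notch1*). Of all tested genes, 6.86% were called lower and 5.96% higher in young TOM+ cDC2, and 4.78% lower and 6.50% higher in young TOM- DC2. *Ikzf3*, encoding the lymphoid factor Aiolos, was at 0.4 ± 0.18, 0.927 ± 0.35 and 4.85 ± 1.01 TPM, *Sox4* at 2.25 ± 0.534, 4.6 ± 1.87 and 12.3 ± 4.34 TPM and *Satb1* at 16.6 ± 2.1, 18.5 ± 4.64 and 31.1 ± 3.58 TPM. *Notch1*, the receptor of T lineage commitment, was at 1.07 ± 0.248, 1.49 ± 0.274 and 0.427 ± 0.143 TPM. The list held both directions, with a median log2FC of −0.13, −0.29 and −0.17 in the 3 comparisons.

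**Figure D4:**
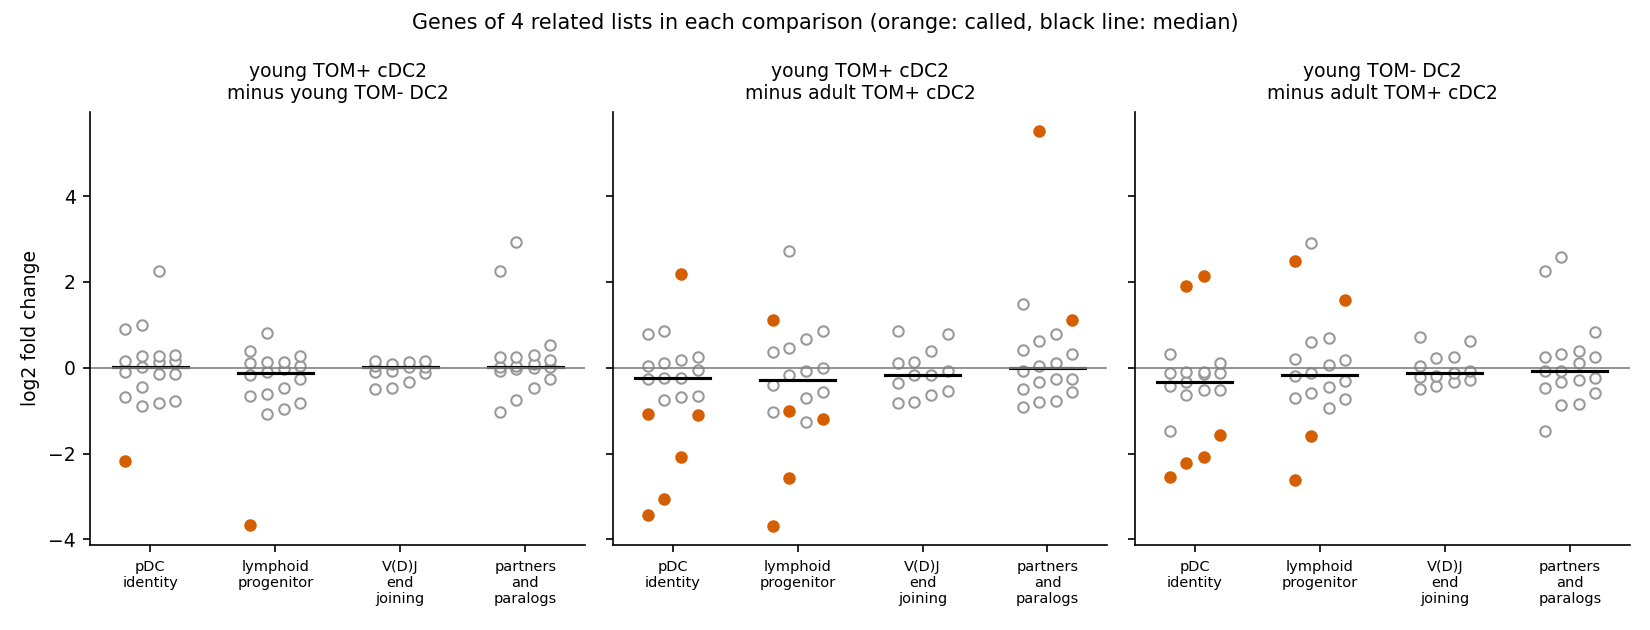
Log2FC (y axis) of the tested genes of 4 lists (x axis) in the 3 comparisons, with called genes filled in orange and the median of each list as a black line. Called genes lie on both sides of 0 in the comparisons with adults, while between the young groups the 2 called genes, *Mctp2* (−2.18) and *Gata3* (−3.67), are both higher in TOM- DC2.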

How the data were processed

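Amplified cDNA (SMART-seq v4) was sequenced in single-end reads. The authors aligned reads to mm10 with STAR and deposited counts of reads per gene, of which the unstranded column was used; reads not on genes (26.1% to 31.6%) were kept out of library sizes. The authors also deposited RSEM expected counts, rounded here as an alternative, TPM, used for levels, and FPKM, which were not used. Tool versions were not given in the sources used here.

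All 9 libraries were fitted in 3 groups with edgeR 4.0.16 in R 4.3.3 (quasi-likelihood test, TMM factors 0.894 to 1.08, mean count of at least 1, Benjamini-Hochberg adjustment over 14452 genes). Alternatives were DESeq2 1.42.0, limma 3.58.1 on log2(TPM + 1) and log2(TPM + 0.1), no TMM, no filter, filterByExpr, RSEM counts, only the groups compared, a replicate block, and each library left out. The fit was tested on simulated data. Amplification without molecular identifiers means that count intervals and floors of 3 counts cover counting error only. Replicates were numbered within a group in order of deposit. Young libraries whose deposited names share a number (81, 91 or 92) deviated from their group means together, with correlations of 0.50, 0.18 and 0.33 over genes, so the numbers were taken to pair them; numbers shared with adults gave 0.00 to 0.04.

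The 8 genes and all lists were chosen with earlier results of these data known. Named were the 8 genes, their partners and paralogs, genes of other lists called in at least 1 comparison or among the 2 most abundant, and the 3 genes most like a called member. Beyond those in the report these were Cadm1, Naaa, Gcsam and Ppt1 (cDC1 list), Cd209a, Clec4a4, Mgl2, H2-Ab1 and H2-Aa (cDC2 list), Cd6 and Cd28 (T cell list), Klre1 (NK cell list) and Il23r and Tox (ILC3 list). A few other genes of these lists are not reported here.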

Additional observations from a re-analysis of the deposited data

How the results depend on the processing

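Of 321 refits of single genes, 302 kept direction and side of the threshold, 14 passed padj only under the alternative and 5 passed only in the original fit. None reversed. For young TOM- DC2 against adults the number of called genes among the 6 was 1, and 2 through Siglech under DESeq2, without a filter, with filterByExpr (which left Ly6d untested), with RSEM counts, when only these groups were fitted and with the replicate block (log2FC −1.89), and 2 through Ly6d without TMM and with limma on log2(TPM + 0.1). It was 1 to 2 with single libraries left out: 2 without young TOM+ replicate 1 (Siglech) and without adult replicate 2 (Ly6d). The number passing padj was 2, and 1 to 3 with single libraries left out, being 1 without adult replicate 3. The counts in the other comparisons did not move under any alternative, and the block changed no other call. Without TMM the median log2FC of all genes was 0.25 and 0.29 in the comparisons with adults, in place of 0.05 and 0.07, and the log2FC of Runx2 for young TOM- DC2 was −0.27 (padj = 0.15). Counts of at most 32 reads per group limit Ly6d, and of at most 61 Siglech and Pacsin1.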
